A study of Mus musculus with 3 samples.

Results

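The genes described here are 44 core genes of the cell cycle engine, given as a list of symbols: the cyclins, the cyclin-dependent kinases (CDKs) and their inhibitors, the retinoblastoma family, the E2F factors, the CDC25 phosphatases with Wee1, and the mitotic kinases and checkpoint genes with Foxm1 and Mki67. All 44 were found, each once, among the 52636 gene identifiers counted, and 42 passed the filter on low counts that left 16548 genes. The study set lymphomas that lack Cic, which encodes the transcriptional repressor capicua, against normal thymus of littermates, and only the normal side is analysed here. It consists of 3 thymi of C57BL/6 mice of the genotype Cic flox/flox that had received tamoxifen. All 3 carry the floxed alleles and the drug, no Cre transgene is named in their labels, and the sources used here give neither age nor sex. Levels are CPM, counts divided by the library's TMM-scaled total of assigned reads and put on the usual CPM scale, and CPM per kilobase (kb) of annotated exon where genes are compared with each other. Errors are SDs over the 3 thymi. There is 1 group, so no contrast between conditions exists, and what can be tested is the spread between thymi.

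Progression through the cell cycle is driven by CDKs, which act only when bound by a cyclin. D-type cyclins with CDK4 or CDK6 start the phosphorylation of the retinoblastoma proteins, which releases E2F factors to switch on E-type and A-type cyclins and the replication genes, and cyclin B with CDK1 then drives mitosis until CDC20 directs the anaphase-promoting complex to destroy it. In the thymus, cells divide mainly after rearrangement of the T cell receptor beta gene, as they pass from the double-negative to the double-positive stage, and most double-positive cells are small and no longer dividing. Loss of the INK4 locus on both copies is a common lesion of T cell leukaemia in humans.

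The libraries held 25408442 to 30414788 reads assigned to genes on the transcribed strand, so that 3 reads correspond to between 0.0986 and 0.122 CPM. Cic was at 259, 271 and 262 CPM in thymus 1, 2 and 3. The defining markers of thymus were present: the double-positive list (9 genes) summed to 10632 to 11322 CPM and the thymic epithelium list (8 genes) to 2046 to 2207 CPM, and none of the genes of these lists was at 0. The libraries were not alike in other cell types. The macrophage and dendritic cell list summed to 1158, 947 and 869 CPM in thymus 1, 2 and 3, and the erythroid list to 1025, 47.2 and 224 CPM. In bulk tissue fewer cells of a type and less RNA per cell cannot be told apart.

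The stretches upstream of the genes carry the sequence elements by which the phases of the cycle are usually told apart. E2F sites mark genes of the G1/S transition, and CCAAT boxes together with the cell cycle homology region (CHR) mark genes of G2 and mitosis. Of the 44 members 33 matched the RefSeq promoter table (GRCm38.p6), and the 250 bases before each annotated start were searched on both strands. The E2F motif was TTTCCCGC, TTTGGCGC, TTTCGCGC or TTTGCCGC, the CHR was TTTGAA or TTCGAA, and the third motif was CCAAT. No match of one motif overlapped a match of another in the members. The 6 stretches below are shown because they stand for the groups whose values follow. Cdk1 and Bub1 had the widest spread between thymi among the matched late genes, and Ccnb2 and Cdc20 a narrow one. Cdc25a and Rbl1, early genes with E2F letters, had the narrowest of all members. Other genes with E2F letters varied more, with a coefficient of variation of 15.5% for the early gene E2f7 and 18.9% for Cdk1. Capitals mark the matches, 5′ to 3′ along the gene.
Cdk1 (chr10:69352913-69353162, minus strand): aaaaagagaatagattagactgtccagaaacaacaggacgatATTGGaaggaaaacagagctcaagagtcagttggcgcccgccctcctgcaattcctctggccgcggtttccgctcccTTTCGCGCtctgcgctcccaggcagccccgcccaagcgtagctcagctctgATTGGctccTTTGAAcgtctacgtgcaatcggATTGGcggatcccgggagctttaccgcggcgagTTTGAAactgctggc
Bub1 (chr2:127831860-127832109, minus strand): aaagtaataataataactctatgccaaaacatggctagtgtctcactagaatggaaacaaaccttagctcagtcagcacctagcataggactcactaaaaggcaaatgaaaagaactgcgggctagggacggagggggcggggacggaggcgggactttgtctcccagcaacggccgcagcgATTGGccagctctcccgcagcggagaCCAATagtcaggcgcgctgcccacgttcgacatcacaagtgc
Ccnb2 (chr9:70421555-70421804, minus strand): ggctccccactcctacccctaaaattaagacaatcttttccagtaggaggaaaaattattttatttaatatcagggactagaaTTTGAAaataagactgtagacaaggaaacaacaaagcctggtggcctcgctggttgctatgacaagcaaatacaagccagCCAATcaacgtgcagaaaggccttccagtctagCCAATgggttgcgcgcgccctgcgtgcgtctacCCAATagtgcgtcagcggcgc
Cdc20 (chr4:118437344-118437593, minus strand): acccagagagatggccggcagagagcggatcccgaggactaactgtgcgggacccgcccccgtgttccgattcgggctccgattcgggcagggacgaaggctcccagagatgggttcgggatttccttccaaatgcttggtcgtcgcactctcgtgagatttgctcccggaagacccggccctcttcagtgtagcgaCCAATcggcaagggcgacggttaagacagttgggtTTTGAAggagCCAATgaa
Cdc25a (chr9:109875329-109875578, plus strand): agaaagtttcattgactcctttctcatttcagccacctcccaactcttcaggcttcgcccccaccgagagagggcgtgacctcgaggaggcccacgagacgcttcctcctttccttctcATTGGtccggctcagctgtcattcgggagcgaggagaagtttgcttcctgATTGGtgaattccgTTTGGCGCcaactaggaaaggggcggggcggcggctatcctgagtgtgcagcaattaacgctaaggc
Rbl1 (chr2:157204535-157204784, minus strand): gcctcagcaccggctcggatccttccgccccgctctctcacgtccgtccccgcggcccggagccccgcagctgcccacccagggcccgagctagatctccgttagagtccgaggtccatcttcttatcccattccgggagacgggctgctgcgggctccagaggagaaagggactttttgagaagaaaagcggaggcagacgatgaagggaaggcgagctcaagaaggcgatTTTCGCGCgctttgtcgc

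Every one of the 10 matched members whose expression is known to peak from late S phase to mitosis had a CCAAT match, namely Aurka, Bub1, Bub1b, Ccnb1, Ccnb2, Cdc20, Cdc25b, Cdk1, Mki67 and Plk1. CCAAT was also found in 4 of the 7 matched G1/S genes and in 6 of the 16 matched members with no fixed peak. Counted by gene, as for the members, it stood in 37.5% of the 27025 genes of the table, and counted by promoter in 33.9% of 32851. CHR letters stood in 5 of the 10 late genes, 2 of the 7 G1/S genes and 3 of the 16 others, against 19.6% of all genes and 17.1% of all promoters. In Cdc20 the CHR lay 18 to 13 bases before the start and in Cdk1 at 15 to 10 and at 71 to 66. In the other late genes it lay further off, at 167 to 162 in Ccnb2, 188 to 183 in Bub1b, and 116 to 111 and 98 to 93 in Mki67. Outside the late genes it lay at 20 to 15 in E2f8, 23 to 18 in E2f3 and 31 to 26 in E2f2. In Cdkn2b it lay at 161 to 156 and in Rbl2 at 201 to 196. E2F letters were found in 3 of 7 matched G1/S genes, Cdc25a, E2f7 and Rbl1, in as many of the 16 with no fixed peak, Cdk2, Cdkn2a and E2f3, and in 1 late gene, Cdk1, against 2.16% of all genes and 1.86% of all promoters. In several late genes CCAAT matches stood in pairs of the same orientation, an arrangement noticed after the matches were seen. In Aurka, Ccnb1 and Cdk1 they lay 32 bases apart and in Ccnb2 3 matches lay 33 bases apart each. A pair 31 to 33 bases apart occurred in 4 of the 10 late genes, in E2f7 among the early ones, and in 0.718% of all promoters. These are matches of letters, not measured binding. The only E2f1 stretch lies wholly inside the gene as annotated in GENCODE M21, so the bases before that gene's outer end were not searched. The E2f2 stretch that held CHR letters also lies inside its gene. So do some stretches of members with no fixed peak, such as those of Ccna1 and Cdk6.

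**Figure D1:**
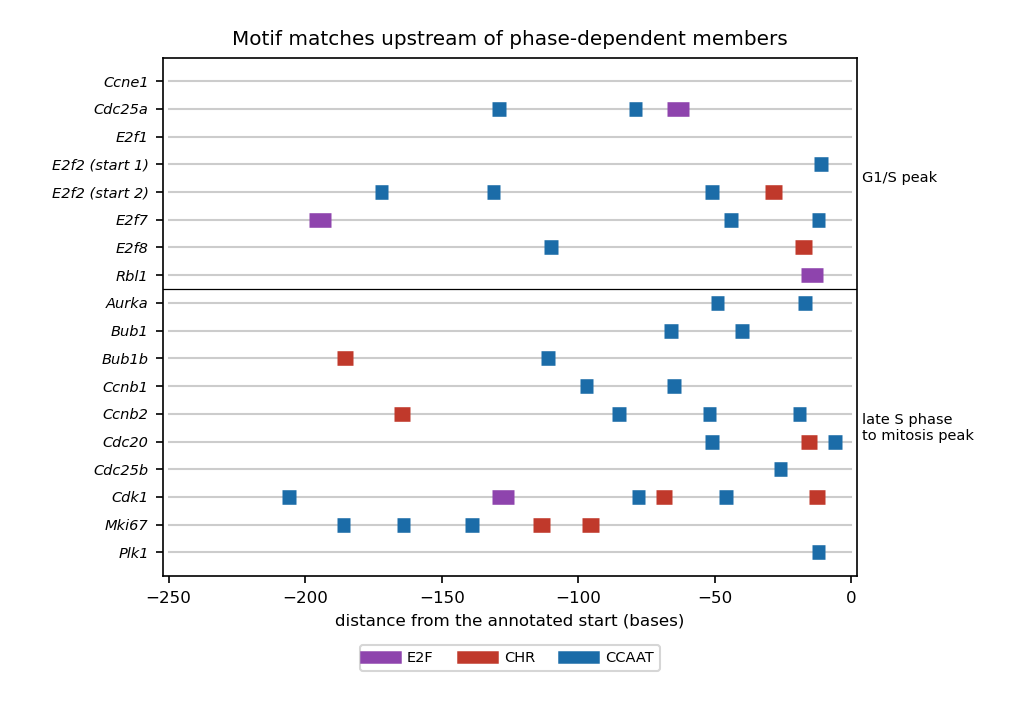
Positions of E2F, CHR and CCAAT matches in the 250 bases upstream of annotated starts, 1 line per promoter, for members with a G1/S peak (top) and with a peak from late S phase to mitosis (bottom). The x axis is the distance from the start in bases. All 10 late genes and 4 of the 7 early ones carry CCAAT matches, and E2F matches stand in 3 early genes and in Cdk1.

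D-type cyclins link growth signals to the cycle. Ccnd3, which thymocytes need for their expansion before the double-positive stage, was at 692, 775 and 687 CPM in thymus 1, 2 and 3. Ccnd2 followed at 137, 133 and 125 CPM, and Ccnd1, the main D-type cyclin of many epithelia, at 28.4, 26.3 and 23.6 CPM. The ranges of the 3 genes lay far apart in every library. Per kb of exon Ccnd3 held 80.7 ± 1.28% of the summed level of the family, Ccnd2 13.8 ± 0.791% and Ccnd1 5.47 ± 0.516% (SD, n = 3). The level per kb of Ccnd3 was 5.85 ± 0.422 times that of Ccnd2 and 14.8 ± 1.54 times that of Ccnd1. Against the length of the longest transcript in place of all exons, the ratios were 8.94 and 26.8, in the same order. All 3 D-type cyclins were lowest in thymus 3 with TMM, where 39.7% of all genes tested were, with DESeq2 size factors (38.3%), with library totals (50.3%) and with TMM without mitochondrial genes (39.6%). Ccnd3 lost that place once values were corrected for GC content. With exon length corrected for as well, Ccnd2 lost it too, and only Ccnd1 was still lowest in thymus 3. The log2 difference between thymus 3 and thymus 2 was then 0.16 for Ccnd3, against −0.17 uncorrected, 0.25 for Ccnd2, against −0.085, and −0.25 for Ccnd1, against −0.15.

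E-type cyclins activate CDK2 at the start of S phase. Ccne2 was at 104, 83.7 and 148 CPM in thymus 1, 2 and 3, and Ccne1 at 24.5, 28.4 and 28.9 CPM. Thymus 3 thus gave the highest Ccne2 value and thymus 2 the lowest, 1.77 times apart. The highest and lowest Ccne1 values were 1.18 times apart. Per kb Ccne2 was 3.13 ± 0.838 times Ccne1, and their ranges did not overlap. Among A-type cyclins, Ccna2, the form used by body cells from S phase on, was at 249, 243 and 291 CPM. Ccna1, which is largely restricted to male germ cells, had 3, 2 and 1 reads, at or under the 3-read limit in every library.

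B-type cyclins carry CDK1 into mitosis. Ccnb2 was at 101, 111 and 109 CPM, and Ccnb1 at 57.1, 55.9 and 70.0 CPM in thymus 1, 2 and 3. Ccnb1 has near copies elsewhere in the genome, Ccnb1-ps among them, and 23.4% of its 50-base stretches occur in transcripts of other places, where reads that map to several places are not in the counts, so its level is uncertain. The meiotic cyclin Ccnb3 had 0, 1 and 0 reads. Per kb of all exons Ccnb2 (69.8 ± 3.26) and Ccna2 (63.9 ± 6.33) did not differ beyond their spread. Per kb of the longest transcript Ccna2 was 1.26 ± 0.125 times Ccnb2, so their order depends on the length used.

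All 5 CDK genes were expressed. Cdk4, the partner of D-type cyclins, was at 206, 206 and 217 CPM, and its companion Cdk6, which is needed for thymocyte development, at 186, 172 and 207 CPM in thymus 1, 2 and 3. Cdk6 has long exons, and per kb Cdk4 (64.5 ± 1.97) stood 4.82 ± 0.318 times above Cdk6 (13.5 ± 1.25). Cdk2, the S phase kinase, was at 167, 176 and 180.4 CPM. Cdk1, the mitotic kinase, was at 169.9, 158 and 223 CPM, with thymus 3 well above the others. Per kb of all exons Cdk1 was 1.32 ± 0.216 times Cdk2, and per kb of the longest transcript 0.784 times, so their order depends on the length used. Cdk7, the kinase that activates the others, was at 57.0, 47.7 and 57.6 CPM. Cdk4 alone held 41.0 ± 1.83% of the summed CDK level per kb. All 5 were highest in thymus 3 with TMM, against 37.9% of all genes tested, and with DESeq2 size factors, against 39.3%. With library totals 2 of 5 were, against 28.1%. After GC correction 4 of 5 were, against 39%, and Cdk7 was highest in thymus 1.

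Levels of the CDK inhibitors covered a wide range. Cdkn1b, an inhibitor of CDK2 that limits the size of the thymus, was at 383, 347 and 409 CPM, and Cdkn2d, an INK4 inhibitor of CDK4 and CDK6, at 127, 132 and 138 CPM in thymus 1, 2 and 3. Per kb these were at 83.4 ± 6.83 and 84.1 ± 3.41, and their ranges overlapped each other and those of E2f2, Ccnd3 and Mki67, the other genes at the top of the list by this length. Cdkn2c, a further INK4 gene, was at 73.6, 74.7 and 86.5 CPM. The p53 target Cdkn1a was low, at 21.4, 20.9 and 15.5 CPM, and per kb Cdkn1b was 15.9 ± 4.17 times Cdkn1a, or 9.29 times on the longest transcript.

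The neighbouring INK4 genes Cdkn2a and Cdkn2b were the lowest of the 42 tested members. Cdkn2a (chromosome 4, 89274471 to 89294653, minus strand, GRCm38), whose reads cover both the INK4A and the ARF transcript, was at 2.47, 2.42 and 1.01 CPM, from 75, 71 and 25 reads. Cdkn2b (chromosome 4, 89306299 to 89311039, minus strand) was at 2.24, 3.20 and 1.26 CPM, from 68, 94 and 31 reads. Both were lowest in thymus 3, by a log2 difference of −1.20 and −1.30 from thymus 2. Of the summed INK4 level per kb Cdkn2d held 72.2 ± 0.0925%, Cdkn2c 25.0 ± 1.31%, and Cdkn2a and Cdkn2b 1.46 ± 0.648% and 1.39 ± 0.625%. Markers of other cell types did not all go one way. Against the 39.7% of all genes that were lowest in thymus 3 stood 8 of 8 macrophage and dendritic cell genes, 7 of 8 progenitor and double-negative genes, with sums of 164 CPM in thymus 3, 212 in thymus 1 and 215 in thymus 2, and 6 of 6 B cell genes, with sums of 78.5, 105 and 97.3 CPM in the same order. With DESeq2 size factors the macrophage count was 6 of 8, against 38.3% of all genes. With TMM 3 of 3 endothelium, 5 of 7 mature single-positive and 5 of 8 thymic epithelium genes were also lowest in thymus 3. So were 2 of 4 mesenchyme, 2 of 4 fat and 1 of 9 double-positive genes. By contrast 4 of 5 tested neutrophil genes were highest in thymus 3, against 37.9% of all genes. That list summed to 40.9 CPM in thymus 3, with 19.8 in thymus 1 and 16.2 in thymus 2. All 5 tested erythroid genes were lowest in thymus 2, against 36% of all genes. The part of these cell types in the low Cdkn2a and Cdkn2b values was not tested.

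**Figure D2:**
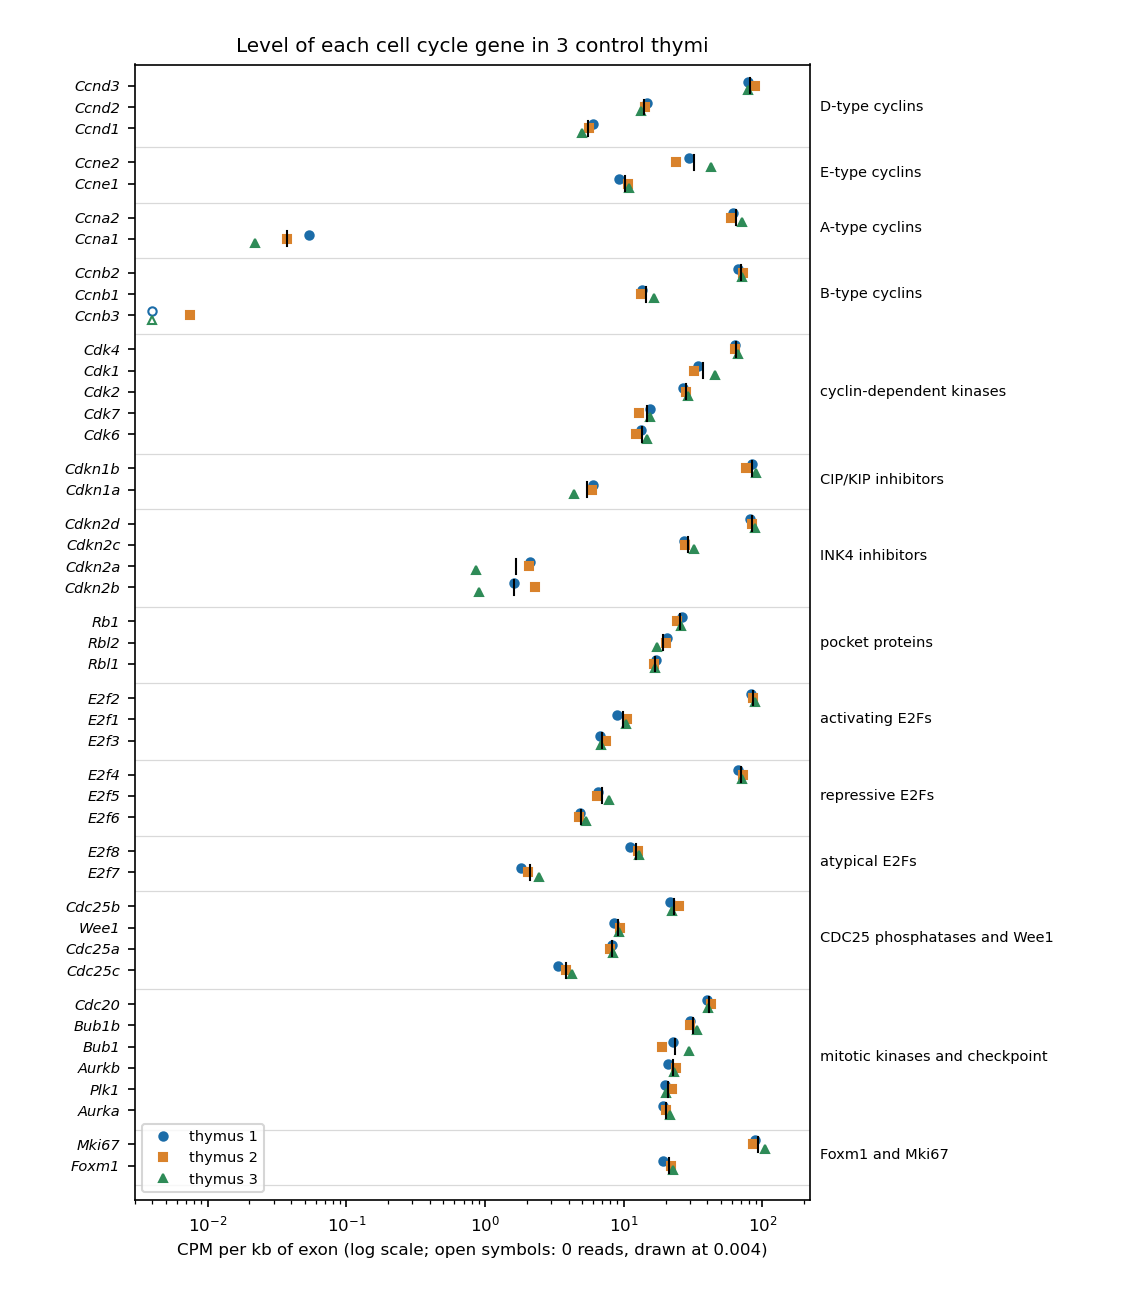
Level of each of the 44 members in each thymus, in CPM per kb of exon on a log axis, grouped by role, with the mean of the 3 thymi as a black bar. Mki67, E2f2, Cdkn2d, Cdkn1b and Ccnd3 lie at the top between 81.9 and 92.5 on this length (per kb of the longest transcript Ccnd3 is at 186 and Cdk4 at 102, above the others), while Ccna1 and Ccnb3 lie at or under 3 reads.

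The retinoblastoma family, which holds E2F factors in check, was even. Rb1 was at 157, 147 and 155 CPM, Rbl2, which acts mostly in resting cells, at 154, 153 and 131 CPM, and Rbl1, which acts mostly in dividing cells, at 102, 98.8 and 101 CPM. Per kb Rb1 held 41.3 ± 1.51% of their sum, Rbl2 31.4 ± 2.15% and Rbl1 27.3 ± 0.731%. With a coefficient of variation of 1.50%, Rbl1 varied least of the 42 members. Rb1 stood out by its other strand. Of the reads on either strand of its exons 30.4% lay opposite to the gene, where exons of Lpar6 and Rcbtb2 overlap it. The counts used here are those of the gene's own strand.

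Of the 8 E2F genes, E2f2 and E2f4 carried most of the RNA. E2f2, an activating E2F with a role in restraining T cell proliferation, was at 403, 417 and 431 CPM, against 28.2, 33.0 and 32.7 CPM for E2f1 and 36.6, 40.2 and 37.2 CPM for E2f3, the other activating members. Per kb E2f2 was 8.64 ± 0.557 times E2f1 and 12.2 ± 0.673 times E2f3. E2f4, the main E2F of resting cells, was at 162, 177 and 173 CPM. Per kb E2f2 and E2f4 held 43.1 ± 0.659% and 35.1 ± 0.670% of the summed E2F level, and on the longest transcript 38.2% and 37.2%, so that their order is clear only with all exons. The repressive E2f5 and E2f6 were low, at 11.6, 11.5 and 14.0 CPM and at 27.4, 26.8 and 30.0 CPM. Among the atypical repressors, which close S phase, E2f8 was at 60.6, 68.5 and 70.5 CPM and E2f7 at 16.3, 18.4 and 22.1 CPM. Both were highest in thymus 3 with TMM, against 37.9% of all genes tested, as was 1 of the 2 with library totals, against 28.1%.

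**Figure D3:**
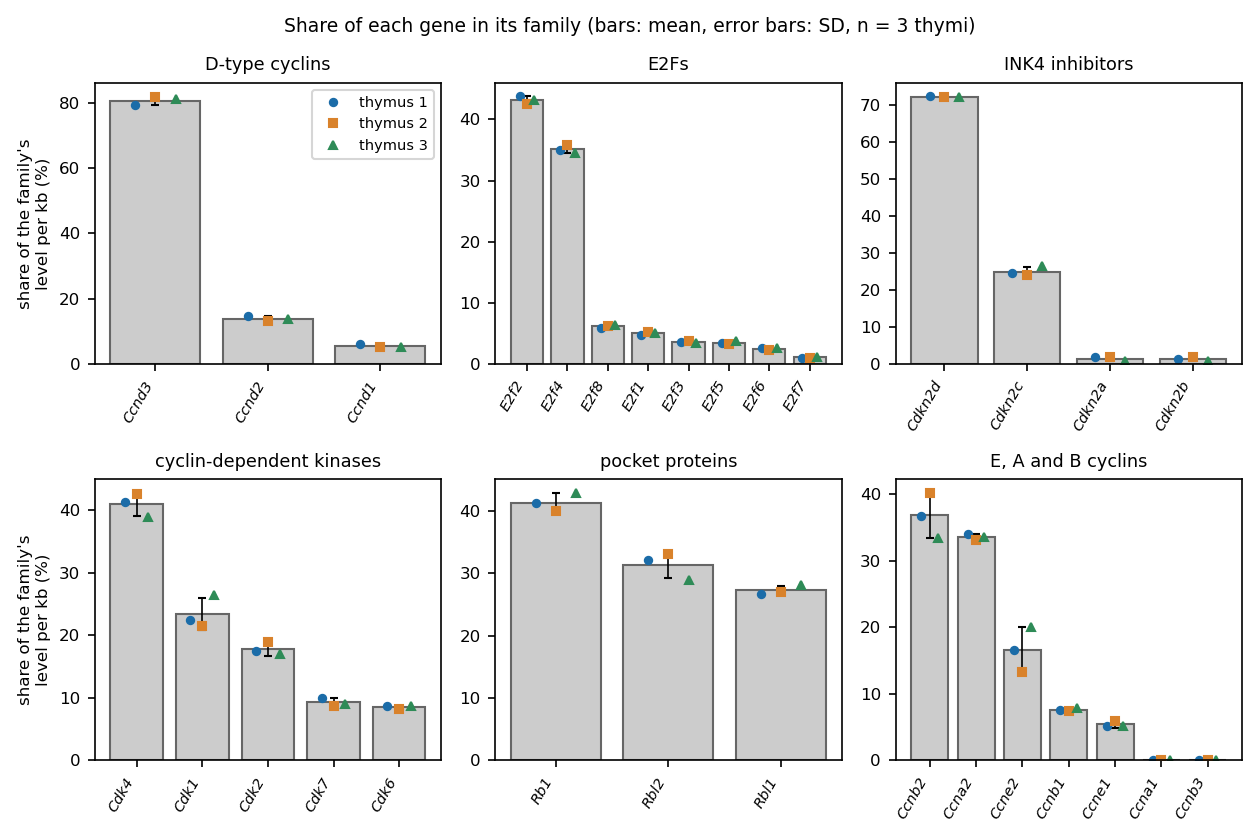
Share of each gene in the summed level per kb of its family, in percent, with bars for the mean, error bars for the SD over 3 thymi and symbols for each thymus. Ccnd3 holds 80.7% of the D-type cyclin level, Cdkn2d 72.2% of the INK4 level and E2f2 43.1% of the E2F level.

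CDC25 phosphatases remove the inhibitory phosphate that WEE1 places on CDKs. Cdc25b was at 80.4, 93.0 and 82.9 CPM, Cdc25a at 65.9, 63.8 and 66.7 CPM, and Cdc25c at 16.5, 19.0 and 20.8 CPM in thymus 1, 2 and 3. Wee1 was at 29.1, 32.0 and 31.8 CPM. Per kb Cdc25b was the highest of the 3 phosphatase genes, at 2.81 ± 0.284 times Cdc25a and, on the longest transcript, 1.59 times. Cdc25a was among the least variable members, with a coefficient of variation of 2.32%. Wee1 exceeded Cdc25a per kb of all exons by a factor of 1.11 ± 0.0726 and lay below it per kb of the longest transcript, at 0.5200 times.

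The Aurora kinases, Aurka of the spindle poles and Aurkb of the centromeres, were at 48.4, 51.3 and 54.7 CPM and at 61.2, 70.0 and 67.4 CPM. Plk1, the polo-like kinase, was at 43.7, 49.0 and 44.1 CPM, and Cdc20 at 74.8, 79.9 and 75.6 CPM. Both have pseudogene copies that share 6.56% and 10.4% of their 50-base stretches. Per kb the ranges of Aurkb, Plk1 and Aurka overlapped those of the next gene in order. The checkpoint kinase genes Bub1 and Bub1b differed in spread. Bub1b was at 128, 129 and 145 CPM, while Bub1 was at 98.1, 81.8 and 128 CPM, again with thymus 3 high and thymus 2 low. Foxm1, the factor that switches on many mitotic genes, was at 111, 125 and 131 CPM. The proliferation marker Mki67 was at 883, 855 and 1052 CPM and per kb of all exons had the highest mean of the members (92.5 ± 10.6), with a range that overlapped that of E2f2 (85.4 ± 2.81). Per kb of the longest transcript it ranked below Ccnd3 (186), Cdk4 (102) and Cdkn2d (93.1).

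Ordered by level per kb, 30 of the 43 neighbouring pairs of members overlapped in range. Levels fell into a top set of 9 genes, down to Ccna2 at 63.9 ± 6.33, followed by a gap to Cdc20 at 41.1 ± 1.45. Besides those named, that top set holds Ccnb2, E2f4 and Cdk4. The summed level of the late genes kept a near-constant proportion to that of the early ones. The 14 genes with a peak from late S phase to mitosis summed to 459, 471 and 526 CPM per kb in thymus 1, 2 and 3, and the 8 with a G1/S peak to 169, 169.6 and 193 CPM per kb. The ratio was 2.74 ± 0.0271 (SD, n = 3). Few genes weigh heavily in these sums. E2f2 alone gave 82.6, 85.4 and 88.2 CPM per kb of the early sums, and Mki67 87.8, 85.0 and 105 of the late ones. The ratio therefore does not describe single genes, and it was taken with all exons only.

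The second question was how far the members differ between the 3 libraries of normal thymus. With edgeR's quasi-likelihood test and Benjamini-Hochberg adjustment over all 16548 genes, 0 of the 42 tested members exceeded the variability trend at their level, where 0.0604% of all genes did. At an unadjusted p under 0.05 there were 5 of the 42, against 4.42% of all genes: Ccne2, Bub1, Cdk1, Cdkn2a and Cdkn2b. Negative binomial goodness of fit called 1 member, Ccne2, against 0.737% of all genes. The DESeq2 dispersion check also called Ccne2, against 0.489%. Without a filter on low counts edgeR called Ccne2 and Bub1, and there 285 of all 30857 genes were called. Variation beyond counting noise is a weaker statement. By Poisson goodness of fit 36 of the 42 members varied, against 43.4% of all genes. Members are abundant, and of the genes with at least 10 CPM in every library 34 of 40 members varied, against 60.8% of all such genes. Leaving out thymus 1 gave 23 members, where 39.7% of all genes varied, leaving out thymus 2 gave 30, against 26.2%, and leaving out thymus 3 gave 20, against 22.3%.

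Ccne2 (chromosome 4, 11191351 to 11204779, plus strand) was the most variable member beside the low Cdkn2a and Cdkn2b, with 3159, 2455 and 3660 reads in thymus 1, 2 and 3 and a coefficient of variation of 29.6%. Its adjusted p was 0.646 with edgeR, 2.21e-05 with edgeR on 30857 genes without the filter, and 0.00250 by negative binomial goodness of fit in edgeR. For Bub1 (chromosome 2, 127801122 to 127831865, minus strand) the coefficient was 23.0%, and the adjusted p was 0.984 with edgeR and 0.00796 with edgeR without the filter. Cdk1 (chromosome 10, 69335146 to 69352938, minus strand) followed at 18.9%, with an adjusted p of 0.984 with edgeR. The 3 genes shared 1 order, thymus 3 above thymus 1 above thymus 2, as did 13 of the 42 members, against 25.7% of all genes. The median coefficient of the 42 members was 8.04%, against 9.06% over all genes tested. Over the 40 members of at least 10 CPM in every library it was 7.87%, against 6.40% over all such genes.

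In all, 24 of 42 members had their maximum in thymus 3, against 37.9% of all genes tested (38% with TMM without mitochondrial genes, where 24 members did too), 11 in thymus 2, against 38%, and 7 in thymus 1, against 24.1%. The minimum lay in thymus 1 for 20 members, against 24.3% of all genes, in thymus 2 for 15, against 36%, and in thymus 3 for 7. With DESeq2 size factors 25 members had their maximum in thymus 3, against 39.3% of all genes. Of the members with at least 10 CPM in every library it was 24 of 40, against 43.5% of all such genes. The count was 6 of 8 for the G1/S genes, 9 of 14 for the late genes and 9 of 20 for members with no fixed peak. No G1/S or late gene was lowest in thymus 3 with TMM, against 39.7% of all genes, and with library totals 2 of 8 and 2 of 14 were, against 50.3%. With TMM 9 of the 14 late genes were lowest in thymus 1 and 5 in thymus 2. The size was small. The median log2 difference between thymus 3 and thymus 2 was 0.054 over the 42 members, 0.043 over the G1/S genes and 0.11 over the late genes, against −0.012 over all genes tested. On library totals it was −0.027, −0.038 and 0.031, against −0.093 over all genes tested, and 15 of 42 members were highest in thymus 3, against 28.1% of all genes.

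**Figure D4:**
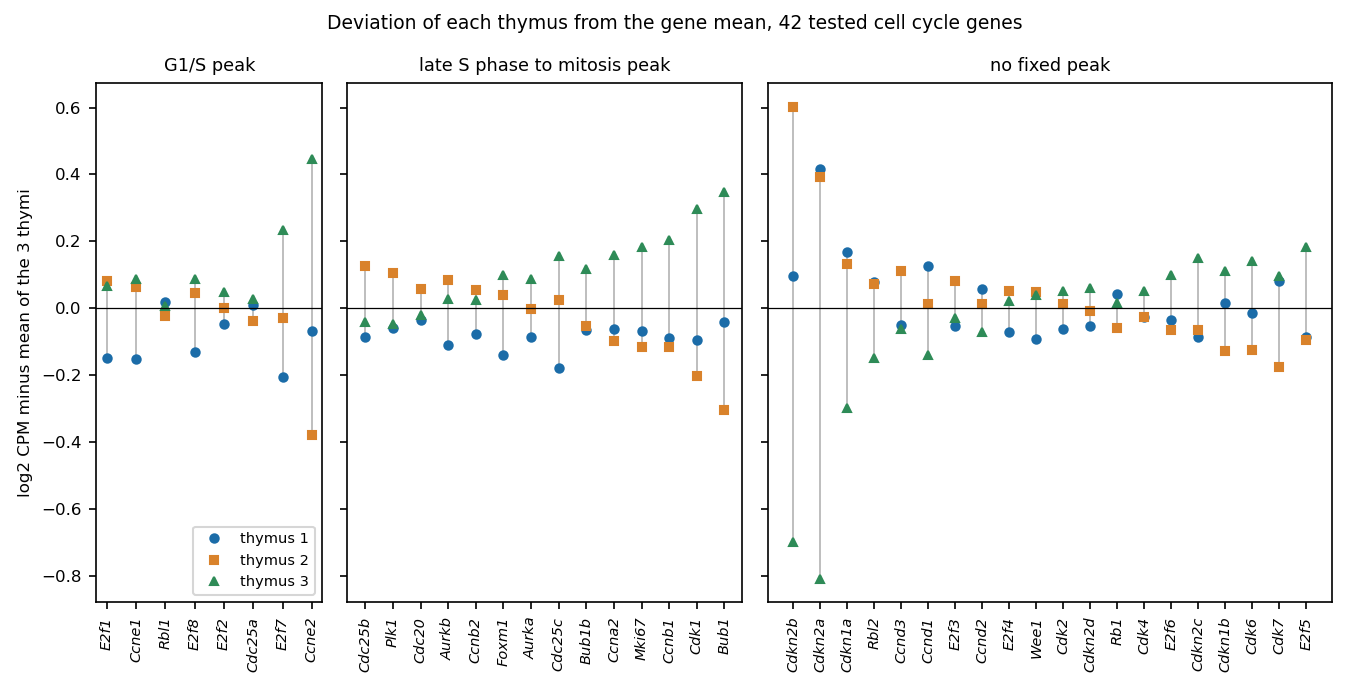
Deviation of log2 CPM in each thymus from the mean of the 3, for the 42 tested members in panels by phase of peak expression, ordered by the difference between thymus 3 and thymus 2. Ccne2, Bub1 and Cdk1 lie highest in thymus 3, and Cdkn2a and Cdkn2b lowest.

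Other genes of the same machinery were counted the same way. Of 49 further cell cycle genes, all tested, 34 peaked in thymus 3, against 37.9% of all genes. Their median log2 difference from thymus 2 was 0.13, or 0.034 after both corrections, and with library totals 28 peaked there, against 28.1% of all genes, at a median of 0.047. Of these 49, edgeR's quasi-likelihood test called 0, and 4 had a p below 0.05 before adjustment. Negative binomial goodness of fit and the DESeq2 check each called 0. By Poisson goodness of fit 36 of the 49 varied beyond counting noise. That compares with 43.4% of all genes, and 60.8% of those with at least 10 CPM in every library. The spindle checkpoint list had 5 of 7 highest in thymus 3, and 4 with library totals. Mad2l1, the checkpoint protein that holds back CDC20, was at 149, 126 and 194 CPM in thymus 1, 2 and 3, in the order of Bub1. Its other leading genes were Bub3 at 176 ± 5.93 and Zwint at 125 ± 12.5 CPM. The partners of the mitotic kinases had 6 of 7 with TMM but 3 with library totals, where 4 were highest in thymus 2, and their median log2 difference of thymus 3 from thymus 2 was 0.055 with TMM, −0.026 with library totals and −0.0069 after both corrections. The list was led by Birc5 (144 ± 18.1), Incenp (131 ± 7.07) and Tpx2 (117 ± 3.15 CPM). The regulators of CDKs had 7 of 10 with either scaling, led by Ccnf (75.6 ± 4.56), Fbxw7 (67.3 ± 3.39) and Cks1b (59.8 ± 5.63 CPM). The anaphase-promoting complex had 11 of 17, and 9 with library totals, led by Anapc5 (413 ± 19.2), Anapc1 (152 ± 5.05) and Cdc27 (148 ± 13.0 CPM). Partners of the E2F and retinoblastoma proteins had 5 of 8 with either scaling, led by Rbbp4 (444 ± 46.5), Tfdp1 (165 ± 11.1) and Tfdp2 (94.9 ± 1.62 CPM).

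Differences between these libraries varied with transcript GC content. Across the 42 members the difference between thymus 3 and thymus 2 and GC content had a Spearman correlation of −0.598 (Pearson −0.613), against −0.365 (Pearson −0.304) across 16522 genes. All points come from the same pair of libraries, and genes are not independent replicates. Ccne2 has the lowest GC content of the members tested, 36.3%, Bub1 has 41.0% and Cdk1 47.8%, while Cdkn2b has 55.9% and Cdkn2a the highest, 60.2%. After removal of the GC trend the log2 difference was 0.51 for Ccne2, against 0.83 before, 0.47 for Bub1, against 0.65, and 0.50 for Cdk1 both before and after. For Cdkn2a and Cdkn2b it was −1.06 and −1.19. When exon length was corrected for as well it was 0.35 for Ccne2, 0.25 for Bub1, 0.38 for Cdk1, −1.17 for Cdkn2a and −1.28 for Cdkn2b. Over all members, 29 of 42 were highest in thymus 3 after GC correction, against 39% of all genes, and 24 after both, against 37.2%. The part of GC content in these differences was not tested further.

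**Figure D5:**
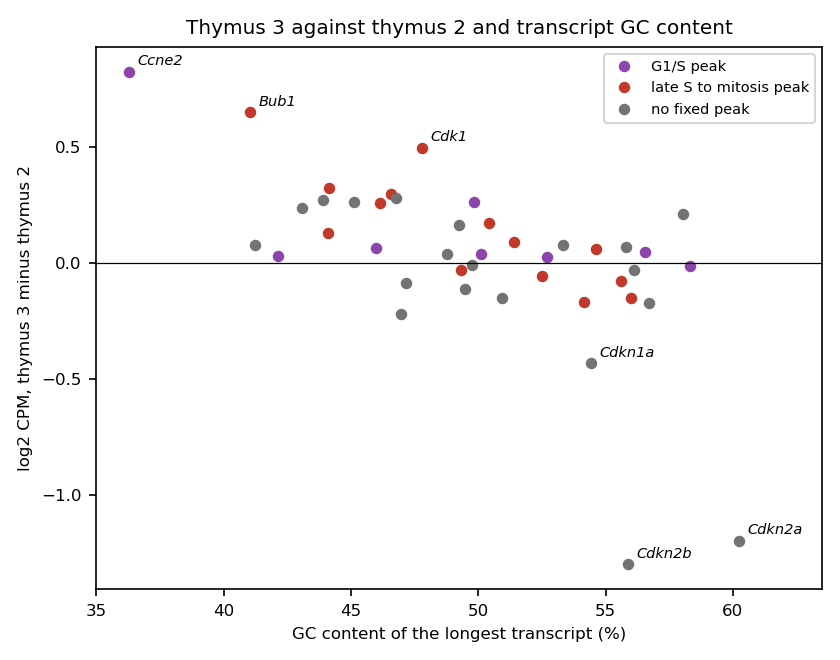
Log2 difference in CPM between thymus 3 and thymus 2 against the GC content of the longest transcript in percent, 1 point per tested member, coloured by phase of peak expression. Ccne2 at 36.3% GC lies highest, and Cdkn2a and Cdkn2b at 60.2% and 55.9% GC lie lowest.

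Several members overlap exons of genes on the other strand, and strand-specific counts matter for their levels. Of the 44 members 19 have such an overlap. On the unstranded column, where reads in overlaps are set aside as ambiguous, the mean was 16.3 CPM for Ccnd1 in place of 26.1, 112 for Rbl2 in place of 146, 214 for Ccna2 in place of 261 and 591 for Ccnd3 in place of 718. After Rb1 the highest opposite-strand shares were 12.2% for E2f5, 8.23% for Ccne2, which overlaps Ints8, and 7.93% for Ccnd1. Cdk4, which overlaps Tspan31, had 5.14%. The median over members was 0.164%.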

How the data were processed

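RNA of 3 control thymi was sequenced from libraries made with a kit that selects polyadenylated RNA and keeps strand (TruSeq Stranded mRNA), per the labels' protocols. The authors deposited raw counts of reads by gene, in a file for each library. Per the submitters' processing notes, STAR 2.5.3a, DESeq2 and GRCm38 were used. The sources used here do not give annotation release, trimming or filters. The reverse-strand column was used, in which 4 summary lines, holding 30.9% to 33.6% of reads, were left out. Multimapping reads (14.0% to 15.5%) are not in the gene counts. Of 52636 identifiers 52489 matched GENCODE M21.

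Counts were filtered with edgeR 4.0.16 (minimum 10, total 15) in R 4.3.3 and scaled by TMM. Variability was tested with an intercept-only robust quasi-likelihood fit, in which each quasi-dispersion was divided by its trended prior and referred to the F distribution with 5.24 prior degrees of freedom, one-sided, at an adjusted p of 0.05. Excess over counting noise was tested by edgeR's goodness of fit with dispersion 0. The scripts were tested on simulated data. Since the labels tie no library to an animal, each p-value describes the spread of these 3 libraries alone, and that spread may be technical. Log2 values use a prior count of 2. GC content is that of the longest transcript, its trend a lowess curve with span 0.3. The alternative length, the longest transcript, and the spacing of CCAAT matches were chosen after seeing the data. Alternatives were the unstranded column, DESeq2 1.42.0 size factors, library totals, TMM without mitochondrial genes, other filters (none, a mean of 5 CPM) and tests, a prior count of 0.5, both corrections and each library left out.

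All members are named; of each list of other cell cycle genes the 3 most abundant are. Mad2l1 is among these. The members and lists were chosen with earlier results of these data known. Opposite-strand shares and 3-read limits cover counting error only.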

Additional observations from a re-analysis of the deposited data

Results flagged for a closer look

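Reads opposite to the gene were found above the 3-read limit in all 3 libraries in 8 members with no annotated exon on the other strand, in a column of counts that enters no test here. Ccne1 had 4.86% of its stranded reads on the opposite strand, from 42, 50 and 25 such reads in thymus 1, 2 and 3, or 5.33%, 5.66% and 3.39%. The others were E2f4 at 0.752%, Cdc25a at 0.558%, Aurka at 0.529%, Mki67 at 0.486%, Cdkn2c at 0.319%, E2f2 at 0.219% and Cdkn1b at 0.119%. Over all genes the opposite strand held 3.37% to 3.44% of assigned stranded reads. Groups of 3 are too small for the check of single samples that stand apart.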

How the results depend on the processing

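With library totals in place of TMM, 20 genes varied beyond the trend, and the median log2 difference of thymus 3 from thymus 2 turned to −0.027 over all members, −0.038 over the G1/S genes and −0.066 over the members with no fixed peak, with 15, 2 and 5 members highest in thymus 3. All genes tested moved to a median of −0.093 there. Without a filter 285 of 30857 genes and 2 members were called variable, by negative binomial goodness of fit 122 and 1, and by DESeq2 dispersion outliers 81 and 1. The cause was not tested. With each library left out in turn, 23 to 137 genes and 0 members varied beyond the trend, and 3768 to 6579 genes and 20 to 30 members varied beyond counting noise, from fewer samples. The unstranded column, DESeq2 size factors, TMM without mitochondrial genes, a 5 CPM mean filter, a non-robust prior, a prior count of 0.5 and both corrections changed no direction or call among these counts and medians. The level per kb moved by more than 1 SD for 30 of 44 members with the longest transcript as length. No paired analysis was possible because there is 1 group. Depth limits Ccna1 and Ccnb3, and Cdkn2a and Cdkn2b rest on 25 to 94 reads per library.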
